A study of Mus musculus with 8 samples.

Results

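The genes described here build caveolae, the flask-shaped pits of the plasma membrane. They were taken from the deposited table by name: the caveolins Cav1 and Cav2, the cavins Cavin1, Cavin2 and Cavin3 (listed in the table as Ptrf, Sdpr and Prkcdbp), the ATPase gene Ehd2, and Pacsin2 and Pacsin3. All 8 were found among the 30387 genes of the table, and all 8 passed the filter on low values. RNA came from primary white adipocytes of epididymal fat. The mice were Ad-Yap/Taz-KO animals (Adipoq-Cre with Yap fl/fl and Taz fl/fl, in which the adiponectin promoter drives Cre in adipocytes from early life) or wild-type littermates (WT). They were given a standard diet (SD, normal chow in the labels) or a high-fat diet (HFD) for 4 weeks, from the age of week 5 according to the series description, while the study's methods give a later start. Each of the 4 groups, WT on SD, Ad-Yap/Taz-KO on SD, WT on HFD and Ad-Yap/Taz-KO on HFD, had 2 libraries, described as separate mice. The adipocytes were isolated from the fat pad and not sorted, and in bulk RNA fewer cells of a type and less RNA per cell cannot be told apart.

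Caveolae are abundant in adipocytes, where they store membrane, buffer stretch and host receptors and lipid transporters. Caveolin-1 inserts into the inner leaflet of the membrane as an oligomer, usually together with caveolin-2. Cavin-1 coats the caveolin assembly and is needed to form the pit, cavin-2 and cavin-3 join that coat, EHD2 forms a ring at the neck, and the F-BAR proteins pacsin-2 and pacsin-3 bend the membrane. YAP and TAZ (gene Wwtr1) are transcriptional co-activators that reach DNA mainly through TEAD factors, and caveolae and YAP/TAZ both respond to mechanical load in many cell types. The comparison addresses how these genes are expressed in isolated adipocytes of Ad-Yap/Taz-KO and WT mice, on both diets.

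The sequences before the start sites are shown because YAP and TAZ, which were deleted here, act through TEAD sites. The promoters of 6 of the 8 genes, from RefSeq on GRCm38.p6, are described. Both strands of the 250 bases upstream of each start were searched for CATTCC (TEAD), TGACTCA (AP-1) and CCAAT, and capitals mark the matches. On chromosome 6, Cav2 and Cav1 lie on the same strand, with 17219 bases between the end of Cav2 and the start of Cav1. The Cav2 window (chr6:17280935-17281184, plus strand) held an AP-1 and a CCAAT match, and the Cav1 window (chr6:17306085-17306334, plus strand) held none of the 3 motifs, nor did the window before a second Cav1 start. The Cavin2 window (chr1:51288876-51289125, plus strand) and the Ehd2 window (chr7:15967568-15967785, minus strand, without the 32 bases that lie in an annotated exon) held a CCAAT match each, which reads ATTGG in Ehd2 because it lies on the opposite strand. CCAAT was also matched before starts of Cavin1 and Pacsin2, and the AP-1 letters before an alternative start of Pacsin2. Only the surroundings of the TEAD letters are shown for Cavin1 (chr11:100970838-100970867, minus strand, within an annotated exon).
Cav2: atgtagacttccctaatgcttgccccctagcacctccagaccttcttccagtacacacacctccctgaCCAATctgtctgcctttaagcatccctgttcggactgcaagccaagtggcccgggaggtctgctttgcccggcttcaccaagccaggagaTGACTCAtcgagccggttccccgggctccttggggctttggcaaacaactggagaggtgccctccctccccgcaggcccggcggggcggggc
Cav1: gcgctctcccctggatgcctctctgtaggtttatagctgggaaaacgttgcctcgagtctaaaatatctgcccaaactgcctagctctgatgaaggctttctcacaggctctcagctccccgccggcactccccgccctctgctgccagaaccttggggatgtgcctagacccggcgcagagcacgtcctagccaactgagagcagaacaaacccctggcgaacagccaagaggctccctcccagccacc
Cavin2: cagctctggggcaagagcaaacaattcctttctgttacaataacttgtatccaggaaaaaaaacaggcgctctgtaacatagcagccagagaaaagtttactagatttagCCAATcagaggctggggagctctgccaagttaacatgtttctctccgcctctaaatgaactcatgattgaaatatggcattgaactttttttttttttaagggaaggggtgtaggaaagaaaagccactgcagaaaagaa
Ehd2: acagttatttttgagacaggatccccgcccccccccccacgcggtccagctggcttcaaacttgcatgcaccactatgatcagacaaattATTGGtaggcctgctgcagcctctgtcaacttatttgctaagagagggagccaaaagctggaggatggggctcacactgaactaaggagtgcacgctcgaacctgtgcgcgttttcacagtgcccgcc
Cavin1: tcaCATTCCtctgccccagtcccgctgccg
Of 32851 mouse promoters searched in the same way, 12.6% held CATTCC, 4.46% held TGACTCA and 33.8% held CCAAT. In Cavin1 the TEAD letters lay 247 to 242 bases before the start. The AP-1 letters of Cav2 lay 92 to 86 bases before its start. A match describes the letters in this window and does not show that a factor binds there.

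The deposited values are called normalized counts here: reads per gene, adjusted for depth with 1 factor for each library and then rounded. Each library rested on 14.0 to 22.3 M reads counted on genes, so that 1 read was worth 0.795 to 1.13 normalized counts and even Pacsin3, the lowest member, had at least 119. Among highly expressed genes the 2 WT HFD libraries differed far less than the other pairs: the median squared difference in genes at 1000 to 5000 normalized counts was 5.47 times the Poisson expectation, against 17.4 to 54.4 in the other groups. In genes at 5 to 20 normalized counts it was 5.68, against 5.66 to 8.88. Whether these 2 libraries come from separate mice could not be settled from the values, so each library is printed and the results were also fitted with the pair as 1 sample. The targeted genes were lower in Ad-Yap/Taz-KO animals. Wwtr1 had 5594 and 4743 normalized counts in WT libraries and 2441 and 1957 in Ad-Yap/Taz-KO animals on SD, and 7121 and 6807 against 2060 and 2707 on HFD. Yap1 had 2776 and 2717 against 1669 and 1699 on SD, and 2468 and 2333 against 1549 and 2068 on HFD. Wwtr1 was called on both diets (limma adjusted p = 0.00097 on SD and 3.1e-05 on HFD), and Yap1 on SD (0.024) but not on HFD (0.059). Adipocyte markers (12 genes, none at 0) summed to between 135065 and 532393 normalized counts per library, and markers of other cell types were present as well.

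Per kb of exon, Cavin1 was the most abundant of the 8 genes, with a mean of 11217 normalized counts per kb over the 8 libraries, followed by Cav1 (7737), Ehd2 (3446), Cavin2 (2946), Cav2 (1646), Cavin3 (992), Pacsin2 (283) and Pacsin3 (67.8). This order held in 8 of 8 libraries for every pair of neighbours but Ehd2 and Cavin2, which stood in it in 6 of 8. Together the 8 genes took 0.582% and 0.637% of all normalized counts in WT mice on SD and 0.506% and 0.558% in Ad-Yap/Taz-KO animals on SD. On HFD they took 0.777% and 0.790% in WT libraries and 0.453% and 0.332% in Ad-Yap/Taz-KO animals, so that the HFD groups lay above and below both SD groups.

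Among the caveolins, Cav1 had 23499 and 26889 normalized counts in WT libraries and 19616 and 26330 in Ad-Yap/Taz-KO animals on SD. On HFD, Cav1 had 44067 and 43299 in WT libraries and 18868 and 10595 in Ad-Yap/Taz-KO animals. The SD groups overlapped, while on HFD the WT libraries were the highest and the Ad-Yap/Taz-KO libraries the lowest of the 8. Cav2, which encodes the partner of caveolin-1, had 5076 and 5986 in WT libraries and 4730 and 5722 in Ad-Yap/Taz-KO animals on SD, and 7895 and 8267 against 3911 and 2335 on HFD. It showed the same arrangement of the 8 libraries.

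Cavin1, which encodes the coat protein that caveolae require, had 35747 and 36408 normalized counts in WT libraries and 31727 and 36308 in Ad-Yap/Taz-KO animals on SD. On HFD it had 63388 and 63986 in WT libraries and 32870 and 21439 in Ad-Yap/Taz-KO animals, of which the first lay within the range of the SD libraries. Cavin2, whose product shapes the coat and the membrane, had 8450 and 10675 in WT libraries and 5788 and 6304 in Ad-Yap/Taz-KO animals on SD, and 14839 and 14684 against 6191 and 5063 on HFD. It was the only cavin with both Ad-Yap/Taz-KO libraries below both WT libraries on SD. Cavin3, an adaptor of the coat, had 1319 and 1998 in WT libraries and 1221 and 1387 in Ad-Yap/Taz-KO animals on SD, and 2895 and 3113 against 829 and 422 on HFD. An antisense gene on the opposite strand, Gm45667, covers 22.5% of the exon bases of Cavin3, and because the strand setting of the counting is not given, reads of the 2 genes may not be told apart there.

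Ehd2, whose product holds the neck of the pit at the membrane, had 14485 and 17380 normalized counts in WT libraries and 13547 and 16943 in Ad-Yap/Taz-KO animals on SD, and 27868 and 29025 against 13608 and 8262 on HFD. Of its 2 Ad-Yap/Taz-KO HFD libraries, the higher reached just into the range of the SD libraries. The pacsins had the lowest means over the 8 libraries, although Cavin3 lay below Pacsin2 in 3 of them, both Ad-Yap/Taz-KO HFD libraries included. Pacsin2 had 1226 and 1397 in WT libraries and 1248 and 1248 in Ad-Yap/Taz-KO animals on SD, and 1738 and 1598 against 1464 and 1211 on HFD. Pacsin3 had 482 and 331 in WT libraries and 199 and 256 in Ad-Yap/Taz-KO animals on SD, and 339 and 447 against 174 and 119 on HFD. Its Ad-Yap/Taz-KO libraries were the lower ones on both diets, and its WT libraries overlapped between the diets.

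**Figure D1:**
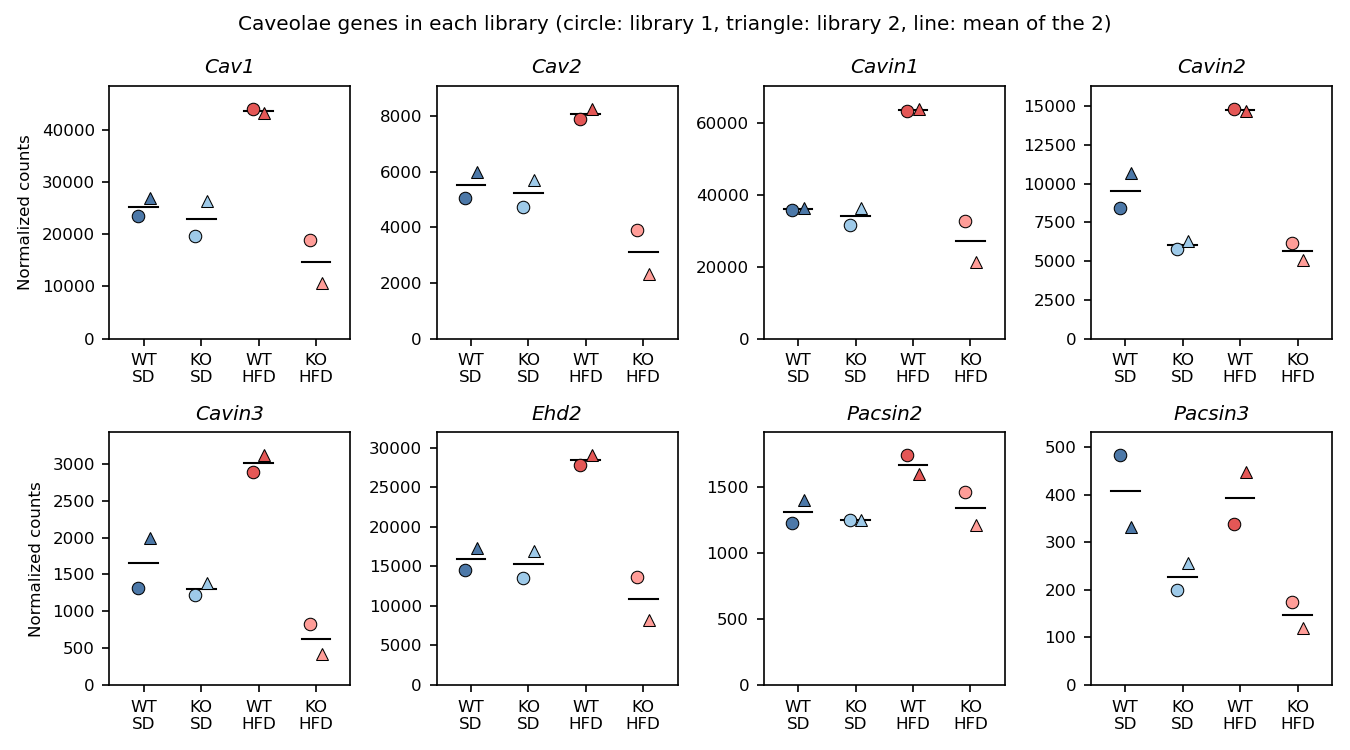
Normalized counts (vertical axis, starting at 0) of the 8 caveolae genes in each library of the 4 groups, with circles for library 1, triangles for library 2 and a line at the mean of the 2. In 7 of 8 genes the WT HFD libraries lie above all others, and in all 8 genes the second Ad-Yap/Taz-KO HFD library is the lowest of the 8.

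On HFD, 7 of the 8 caveolae genes fell in Ad-Yap/Taz-KO adipocytes relative to WT, that is, they passed a Benjamini-Hochberg adjusted p of 0.05 in limma and a log2 fold change of 0.59. Over all 18800 genes tested, 15.1% were called lower in this comparison and 32.2% in either direction. The median log2 fold change of the 8 members was -1.42 and that of all tested genes 0.09. The largest fall was that of Cavin3, 5.07-fold (log2 fold change -2.34, standard error 0.27, limma adjusted p = 4e-05). Cav1 fell 3.09-fold (log2 fold change -1.63, standard error 0.25, limma adjusted p = 0.00034) and Cavin1 2.40-fold (log2 fold change -1.26, standard error 0.22, limma adjusted p = 0.00077). Cav2, Cavin2, Ehd2 and Pacsin3 lay close together, with log2 fold changes of -1.42, -1.40, -1.42 and -1.43 and standard errors of 0.21, 0.17, 0.22 and 0.28. Pacsin2 was not called (log2 fold change -0.32, 95% interval -0.67 to 0.02, limma adjusted p = 0.13), although its groups did not overlap. All 8 members had both Ad-Yap/Taz-KO libraries below both WT libraries, as had 33% of all tested genes. The 7 calls stood when any 1 of the 4 libraries was left out and with the WT HFD libraries as 1 sample, while quantile normalization ended that of Cavin1 (log2 fold change -0.41, limma adjusted p = 0.085).

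**Figure D2:**
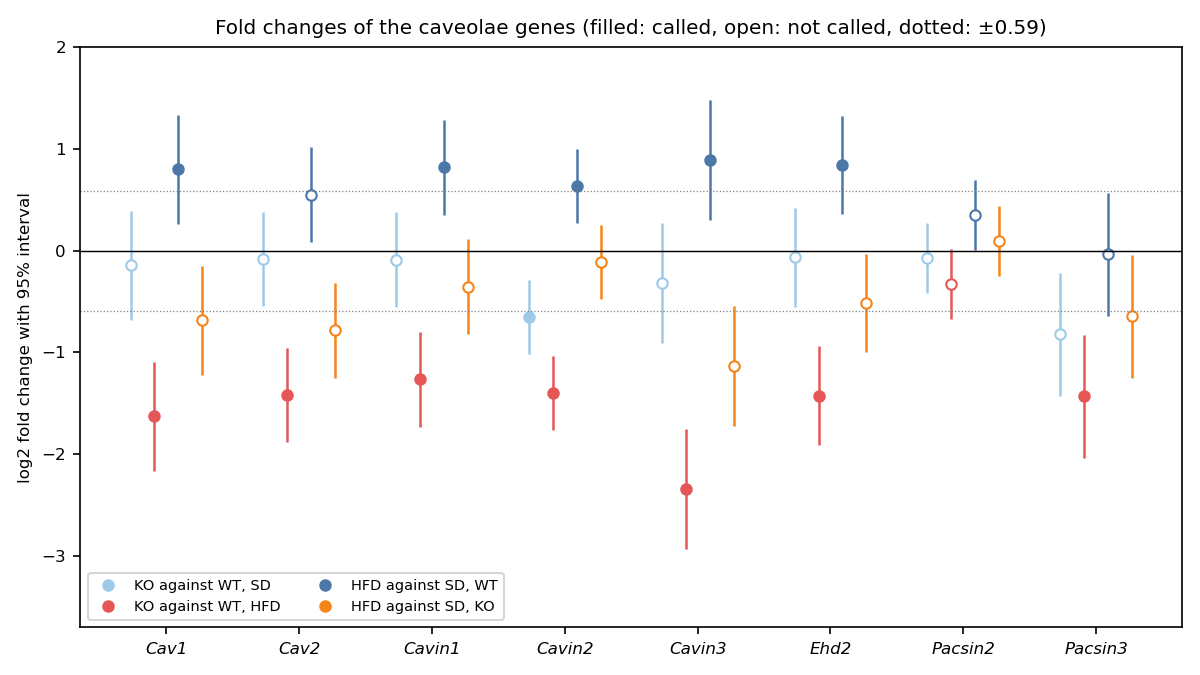
Log2 fold change (vertical axis) with its 95% interval for each of the 8 genes in 4 comparisons, with filled points for called genes, open points for genes not called and dotted lines at 0.59 in either direction. The comparison of genotypes on HFD lies between -2.34 and -0.32, and that of diets in WT between -0.04 and 0.89.

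The second Ad-Yap/Taz-KO HFD library was lower than the first for all 8 genes, by 1.21-fold in Pacsin2 up to 1.96-fold in Cavin3. The adipocyte markers differed between the same 2 libraries, with sums of 260648 and 135065 normalized counts. In this comparison 10 of the 12 adipocyte markers fell, with a median log2 fold change of -1.54, led by Lep (-4.45), Plin4 (-2.07) and Cidec (-2.07), which encode leptin and 2 coat proteins of lipid droplets. Macrophage markers rose in 9 of 10 genes (median 3.83), their summed level being 2343 to 2501 normalized counts in WT libraries and 28980 to 31186 in Ad-Yap/Taz-KO animals on HFD. Fibroblast and progenitor markers rose in 8 of 10 (median 1.59, sums of 22914 to 23456 against 71730 to 80865). Endothelial cells are also rich in caveolae. Of 12 endothelial markers, 5 rose and 0 fell (median 0.67, sums of 18220 to 19005 against 24391 to 37525), and smooth muscle and pericyte markers rose in 2 and fell in 2 of 10. No gene of these 5 lists was at 0 in all libraries. The part of these marker changes in the result for the caveolae genes was not tested.

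A level set against adipocyte markers within a library hardly depends on the 1 factor by which that library is scaled, although quantile normalization, which has no such factor, can change it. The log2 value of Cav1 minus the median log2 value of the 12 adipocyte markers stayed between -0.31 and 0.13 in the 8 libraries, a range of 0.45, whereas the log2 value of Cav1 itself spanned 2.06. The corresponding ranges were 0.59 and 1.82 for Cav2, 0.93 and 1.58 for Cavin1, 0.66 and 1.81 for Ehd2, and 0.98 and 2.88 for Cavin3. Cavin2 (1.38 and 1.55) and Pacsin3 (1.61 and 2.01) narrowed less. Pacsin2 was the exception among the 8 genes, with a range of 1.93 relative to the adipocyte markers and of 0.52 by itself. Relative to the markers, Pacsin2 was highest in the Ad-Yap/Taz-KO HFD libraries (-3.83 and -2.99) and lowest in the WT HFD libraries (-4.82 and -4.92). Cavin3 had its lowest values relative to the markers in the Ad-Yap/Taz-KO HFD libraries (-4.65 and -4.51), close below the Ad-Yap/Taz-KO SD libraries (-4.32 and -4.49). Against the median of the endothelial markers the range of Cav1 was 3.11. These are descriptions over 8 libraries, with no test, and the adipocyte markers fell in the same libraries as the members.

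**Figure D3:**
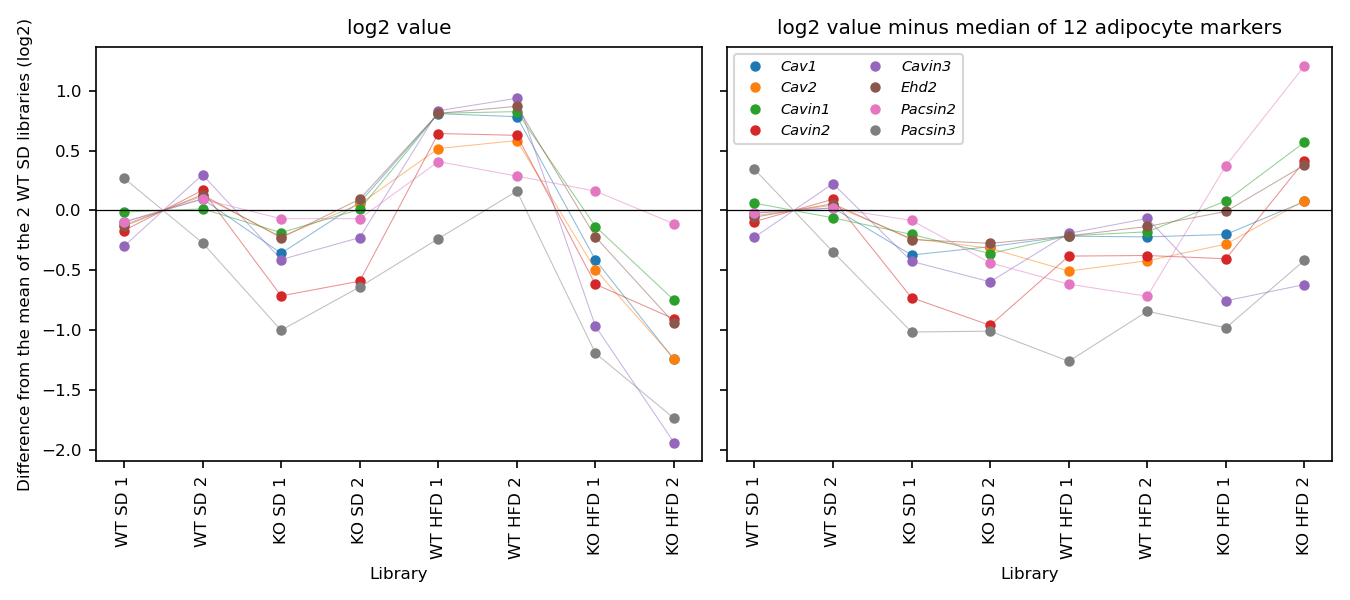
Each point is 1 gene in 1 library, given as the difference from the mean of the 2 WT SD libraries on the log2 scale, for the values as deposited (left) and after subtracting the median of the 12 adipocyte markers (right), and thin lines join the points of a gene only to guide the eye. Cav1 spans 2.06 on the left and 0.45 on the right, and Pacsin2 spans 0.52 and 1.93.

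The genes also differed in proportion to one another. Per kb, Cavin1 was 1.3 to 1.55 times as abundant as Cav1 in the SD and WT HFD libraries and 1.67 and 1.94 times in the Ad-Yap/Taz-KO HFD libraries. Ehd2 stood between 0.415 and 0.525 times the level of Cav1 in all 8 libraries, the highest being 1.27 times the lowest, and Cav2 between 0.185 and 0.249, the highest being 1.35 times the lowest. Among the other 5 members that ratio of highest to lowest was 1.49 or more. Cavin3 stood at 0.109 to 0.154 times the level of Cav1 in the other groups and at 0.091 and 0.083 in the Ad-Yap/Taz-KO HFD libraries. Cavin2 stood at 0.333 and 0.270 in Ad-Yap/Taz-KO animals on SD, against 0.405 and 0.448 in WT mice on SD, and reached 0.539 in the second Ad-Yap/Taz-KO HFD library.

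On SD, Cavin2 alone among the 8 genes was called between the genotypes. Cavin2 fell 1.57-fold (log2 fold change -0.65, standard error 0.17, limma adjusted p = 0.042). Over all tested genes, 1.5% were called lower and 4.71% in either direction. The call of Cavin2 was lost when any 1 of the 4 SD libraries was left out (adjusted p of 0.064 to 0.4 in limma) and when the WT HFD pair counted as 1 sample (limma adjusted p = 0.12). Pacsin3 was not called (log2 fold change -0.82, standard error 0.28, limma adjusted p = 0.14), although its groups did not overlap. For the other members the 95% intervals of the log2 fold change were -0.68 to 0.39 for Cav1, -0.55 to 0.38 for Cav2, -0.55 to 0.38 for Cavin1, -0.91 to 0.27 for Cavin3, -0.55 to 0.42 for Ehd2 and -0.41 to 0.28 for Pacsin2. The groups did not overlap, with Ad-Yap/Taz-KO lower, for 2 of the 8 members and for 22.2% of all tested genes. On this diet 0 of the 12 adipocyte markers and 0 of the 12 endothelial markers were called, while 9 of 10 macrophage markers rose (median 1.97, sums of 5019 to 5093 normalized counts in WT libraries and 16278 to 29355 in Ad-Yap/Taz-KO animals). The log2 fold changes of the 12 endothelial markers were all negative, from -0.88 to -0.42 with a median of -0.60, and their sums did not overlap (30295 to 36317 against 15865 to 28551). The part of these markers in the value of Cavin2 was not tested.

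In WT mice, 5 of the 8 genes rose on HFD relative to SD. Over all tested genes, 8.74% were called higher and 18% in either direction. Cavin3 rose 1.85-fold (log2 fold change 0.89, standard error 0.27, limma adjusted p = 0.038), Ehd2 1.79-fold (0.84, standard error 0.22, limma adjusted p = 0.021), Cavin1 1.77-fold (0.82, standard error 0.22, limma adjusted p = 0.02), Cav1 1.74-fold (0.80, standard error 0.25, limma adjusted p = 0.04) and Cavin2 1.55-fold (0.64, standard error 0.17, limma adjusted p = 0.02). Cav2 had a log2 fold change of 0.55 (limma adjusted p = 0.086) and Pacsin2 of 0.35 (limma adjusted p = 0.14), both with groups that did not overlap, and Pacsin3 of -0.04 with overlapping groups. The median of the 8 members was 0.72 and that of all tested genes -0.08. In the same comparison 2 of the 12 adipocyte markers rose and 1 fell (median 0.66), and 6 of the 12 endothelial markers fell (median -0.78), with sums of 30295 to 36317 normalized counts on SD and 18220 to 19005 on HFD. Of the 10 macrophage markers 8 fell (median -1.01, sums of 5019 to 5093 against 2343 to 2501), and of the 10 fibroblast and progenitor markers 5 fell (median -0.92, sums of 31449 to 37904 against 22914 to 23456). The part of these markers in the rise of the caveolae genes was not tested. The calls depended on the settings: with the WT HFD libraries as 1 sample, without a filter on low values, scaled to the same total or with quantile normalization 0 of the 8 genes were called, and leaving out either WT SD library or either WT HFD library left at most 1, which was Cavin2 without the second WT SD library.

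In Ad-Yap/Taz-KO animals, 0 of the 8 genes were called between HFD and SD by limma, while 5 had an unadjusted p under 0.05, as did 15.5% of all tested genes. Over all tested genes 0.691% were called lower and 0.383% higher. Cavin3 came closest, with a log2 fold change of -1.14 (95% interval -1.73 to -0.55, limma adjusted p = 0.069), followed by Cav2 with -0.78 (95% interval -1.25 to -0.32, limma adjusted p = 0.1) and Cav1 with -0.68 (95% interval -1.22 to -0.15, limma adjusted p = 0.21). The values of Ehd2, Pacsin3, Cavin1, Cavin2 and Pacsin2 were -0.51, -0.65, -0.35, -0.11 and 0.09. Without the first Ad-Yap/Taz-KO HFD library, which was the higher one, Cav1, Cav2, Cavin3 and Ehd2 had log2 fold changes of -1.10, -1.16, -1.62 and -0.87. Without the second, the values of the same genes shrank to -0.27, -0.41, -0.65 and -0.15, so their size rested on single libraries. In the comparison of all 4 libraries, 1 of the 12 adipocyte markers fell, Cfd (-2.64), and their median was -0.83, with sums of 318586 to 427346 normalized counts on SD and 135065 to 260648 on HFD. Of the macrophage markers Adgre1 (1.37) rose, and of the fibroblast and progenitor markers Col1a1 (1.57) and Pdgfra (1.37). The part of these markers in the values of the members was not tested.

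The effect of the genotype was more negative on HFD than on SD for 6 of the 8 genes by the test of that difference, the interaction of genotype and diet. Over all tested genes 8.73% were called with a negative and 17.4% with any interaction. Cavin3 had the largest, -2.02 on the log2 scale (standard error 0.38, limma adjusted p = 0.0072), followed by Cav1 with -1.48 (standard error 0.35, limma adjusted p = 0.016), Ehd2 with -1.36 (standard error 0.32, limma adjusted p = 0.015), Cav2 with -1.33 (standard error 0.30, limma adjusted p = 0.014), Cavin1 with -1.17 (standard error 0.30, limma adjusted p = 0.022) and Cavin2 with -0.75 (standard error 0.24, limma adjusted p = 0.046). Pacsin3 (-0.61, 95% interval -1.47 to 0.25) and Pacsin2 (-0.26, 95% interval -0.74 to 0.23) were not called. Of the 12 adipocyte markers 10 had a called negative interaction, while a called positive one was found for 9 of the 12 endothelial, 9 of the 10 macrophage and 9 of the 10 fibroblast and progenitor markers. Their part in the values of the caveolae genes was not tested. When the WT HFD pair counted as 1 sample, 0 of the 8 genes were called, with adjusted p-values of 0.05 to 0.16 in limma for the 6 genes. Without a filter on low values 0 were called, and with quantile normalization 2, Cav2 and Cavin3. Leaving out the first WT SD library also left 0, and leaving out the second Ad-Yap/Taz-KO SD library, or the first or the second WT HFD library, left Cavin3 alone. Scaled to the same total, Cavin1 (-0.75) and Cavin2 (-0.32) were not called, which left 4 genes, and Cavin2 also lost its call with upper-quartile scaling, a pseudocount of 0.1 and the replicate block. The comparisons share their libraries, so the interaction, the fall on HFD and the rise in WT mice are not independent of one another.

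The scaling of the libraries bears on all of these values. With each library scaled to the same total in place of the authors' size factors, the median log2 fold change over all tested genes moved from 0.09 to 0.47 between the genotypes on HFD, from -0.08 to -0.48 between the diets in WT and from 0.10 to 0.52 in the interaction. Calls over all genes between the genotypes on HFD then split into 4617 higher and 1367 lower in place of 3213 and 2840, those between the diets in WT into 470 and 3567 in place of 1643 and 1734, and those of the interaction into 2610 and 619 in place of 1633 and 1641. With upper-quartile scaling the split was 1089 and 2194 between the diets in WT libraries and 1971 and 1288 in the interaction. Scaled to the same total, Cavin3 stood at -1.96, Cav1 at -1.24, Cavin1 at -0.88 and Pacsin2 at 0.062 between the genotypes on HFD. Relative to the shifted median, Cavin3 stood at -2.42, Cav1 at -1.71, Cavin1 at -1.34 and Pacsin2 at -0.41 in that comparison. Between the diets in WT the values on this scaling were 0.47, 0.38 and -0.065 for Cavin3, Cav1 and Pacsin2. Relative to the shifted median there, they were 0.95, 0.86 and 0.41. Subtracting the median largely undoes a factor for each library, so the values relative to it cannot show whether a change depends on the scaling.

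The relatives of these genes behaved differently from one another. Of the 6 paralogs, Cav3, the caveolin of muscle, had 0 to 12 normalized counts and was too low to be tested. Cavin4, the cavin of muscle, had 63 and 81 in WT libraries and 21 and 41 in Ad-Yap/Taz-KO animals on HFD and was not called (limma adjusted p = 0.078). The EHD proteins other than EHD2 work mainly on endosomes. Ehd1 had 4994 and 4567 normalized counts in WT libraries and 5132 and 4324 in Ad-Yap/Taz-KO animals on HFD, with overlapping groups. Ehd3 had 402 and 464 in WT libraries and 255 and 240 in Ad-Yap/Taz-KO animals on SD, and 1418 and 1448 against 276 and 433 on HFD. Ehd3 rose in WT mice on HFD (log2 fold change 1.73, standard error 0.22, limma adjusted p = 0.00056) and fell with the genotype on HFD (log2 fold change -2.05, standard error 0.22, limma adjusted p = 2.3e-05). Ehd4 went the other way, with 1040 and 928 in WT libraries and 2135 and 1192 in Ad-Yap/Taz-KO animals on SD and 909 and 689 against 2693 and 3302 on HFD (log2 fold change on HFD 1.91, standard error 0.24, limma adjusted p = 8.5e-05). The interaction of genotype and diet was -1.25 for Ehd3 (limma adjusted p = 0.019) and 1.21 for Ehd4 (limma adjusted p = 0.031), and neither was called when the WT HFD pair counted as 1 sample. Pacsin1, the pacsin of neurons, had 0 to 5 normalized counts in 6 libraries and 26 and 25 in Ad-Yap/Taz-KO animals on HFD, and its call on HFD (limma adjusted p = 0.04) was lost when any 1 of the 4 HFD libraries was left out.

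**Figure D4:**
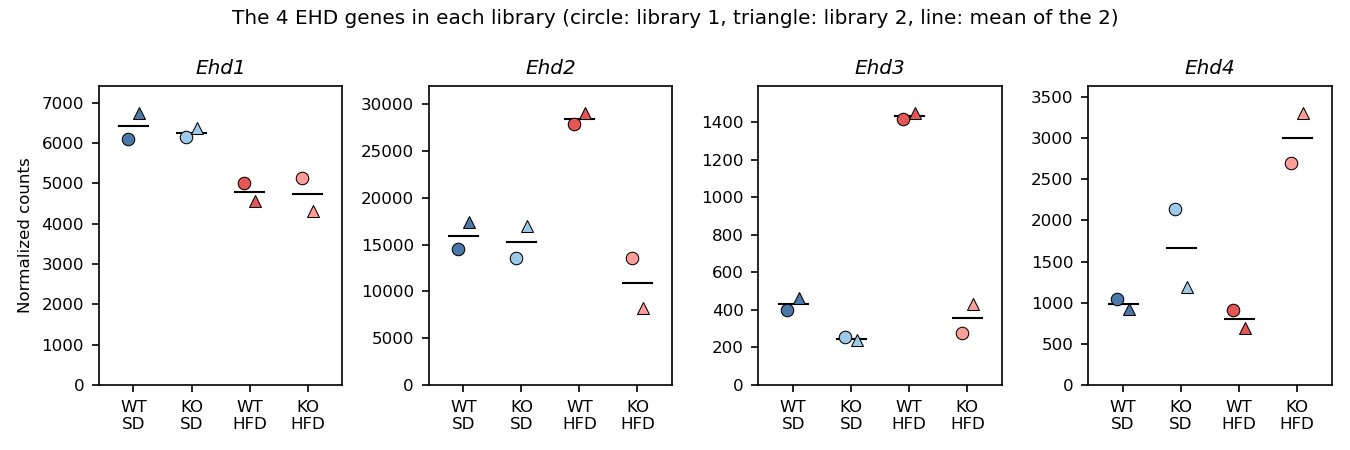
Normalized counts (vertical axis, starting at 0) of the 4 EHD genes in each library, with circles for library 1, triangles for library 2 and a line at the mean of the 2. Ehd2 and Ehd3 are highest in the 2 WT HFD libraries, at 27868 and 29025 and at 1418 and 1448, whereas Ehd4 is highest in the Ad-Yap/Taz-KO HFD libraries, at 2693 and 3302.

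Proteins that have been reported in adipocyte caveolae were followed by a list of 9 genes, among them the insulin receptor, CD36 and GLUT4. In Ad-Yap/Taz-KO animals on HFD, 7 of the 9 fell and 0 rose, with a median log2 fold change of -1.40. The largest falls were those of Aoc3 (-2.37, standard error 0.26, limma adjusted p = 2.7e-05), an amine oxidase of the adipocyte surface, Plin1 (-1.73), the perilipin of the lipid droplet, and Lipe (-1.57), hormone-sensitive lipase. In WT mice on HFD 5 of the 9 rose. The list shares 3 genes with the adipocyte markers. Genes of scaffolds and of vesicle scission (11 genes) showed no such common direction: between the genotypes on HFD 3 rose and 2 fell, with a median of -0.03. Dnm1, the dynamin of neurons, rose (2.67, standard error 0.30, limma adjusted p = 3.4e-05), as did Ror1 (1.93), a receptor-like kinase, while Flot1 (-1.05), which encodes flotillin-1 of another membrane domain, fell. The other calls of this list, named after their values were seen, were Src (0.88) and Flot2 (-0.80). Of 10 genes of the clathrin coat and its adaptor AP2, the other main route of endocytosis, 3 fell and 0 rose (median -0.32), namely Cltb (-0.73), Ap2a2 (-0.72) and Eps15 (-0.63), all short of the smallest fall among the 7 called caveolae genes.

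**Figure D5:**
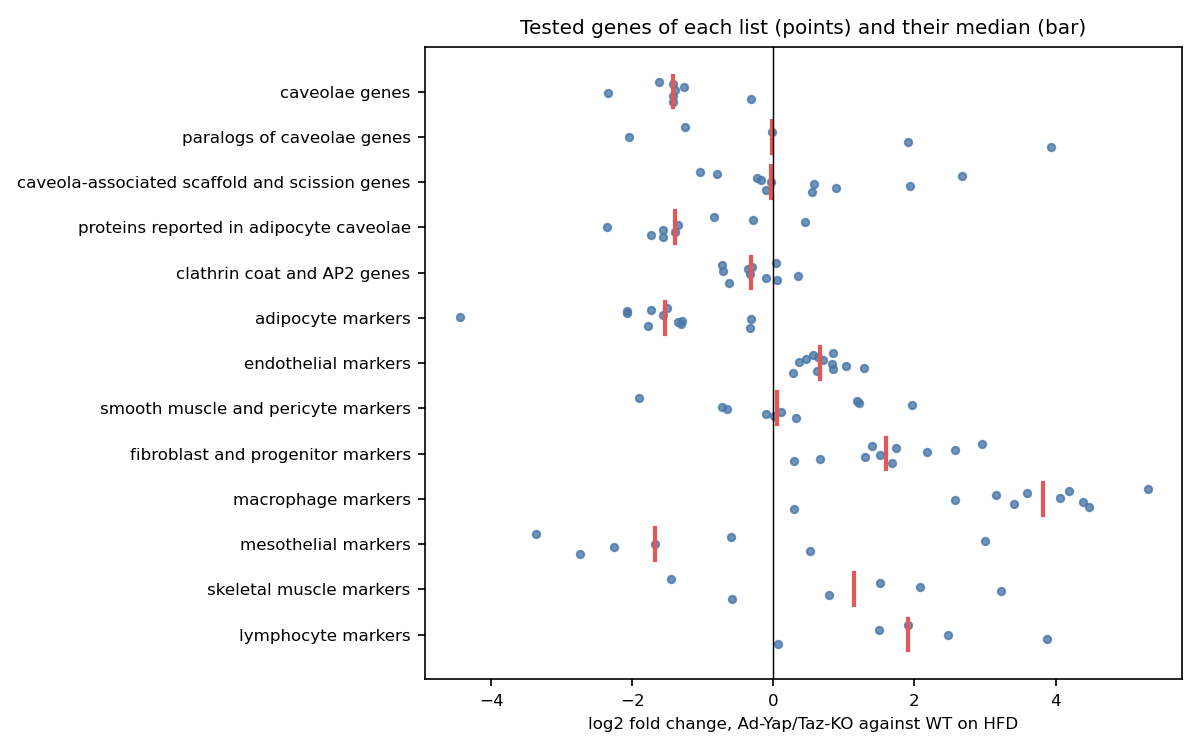
Log2 fold change between Ad-Yap/Taz-KO and WT mice on HFD (horizontal axis) for each tested gene of 13 lists (points), with a bar at the median of each list. The caveolae genes have their median at -1.42, next to the adipocyte markers at -1.54 and the proteins reported in adipocyte caveolae at -1.40, while the endothelial markers have theirs at 0.67.

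The genes whose pattern over the 8 libraries was most like that of Cav1 were sought among the other genes with a mean of at least 50, by Pearson's r on the log2 scale. The 5 highest were Apol6, Tcaf1, Abcd2, Mknk2 and Extl3, with r from 0.994 to 0.997. For Cavin1 they were Tmem50b, Slc22a3, Mlec, Mgll and Mfn2, with r from 0.993 to 0.996. Of the members, Ehd2 was the one most like Cav1 (r = 0.992, rank 11 of 12092 genes) and also most like Cavin1 (r = 0.989, rank 27). Cav2 was most like Cavin3 (r = 0.990, rank 11). Pacsin2 (r = 0.757 with Cav1, rank 2857) and Pacsin3 (r = 0.814, rank 2192) were least like Cav1, and Cavin2 stood between them and the others (r = 0.900, rank 1099). The points are 8 libraries that fall into 4 groups and share their scaling, which limits what r can show. With Cavin1, Cav1 reached r = 0.976 and still ranked 133. These are descriptions with no test.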

How the data were processed

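Total RNA of isolated adipocytes (4 groups, 2 mice each) was depleted of ribosomal RNA and sequenced by the authors after stranded library preparation. Reads were trimmed with Reaper and placed on GRCm38 by STAR 2.5.2b, and the authors counted those on exons with featureCounts 1.5.1, leaving out reads of several genes or places. Versions are those of the submitters' processing notes, which also name DESeq2 1.14.1. The strand setting of the counting is not given in the sources used here. The deposited values are a score made by the authors: reads per gene, divided by 1 factor for each library to even out depth, with decimals dropped by rounding. The value of 1 read was estimated from the spacing of low values. The study gives 2 mice for each group, so p-values measure the spread between mice as far as the libraries come from separate animals, which is uncertain for the WT HFD pair.

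The test was limma 3.58.1 in R 4.3.3, run on the 18800 of 30387 genes whose 8 libraries averaged 5 or more, with an abundance trend, on log2(value + 1), a scale that understates changes of low genes. One fit held the 4 group means (4 residual and 8.59 prior degrees of freedom). Benjamini-Hochberg adjustment covered all genes tested. A call needed an adjusted p no higher than 0.05 together with a log2 change, up or down, of 0.59 or more. With 2 libraries against 2, an exact two-sided permutation test of 1 gene cannot go below 0.333, so none is given. The fit was tested on simulated data. Exon lengths and overlaps came from GENCODE vM21 (GRCm38), and promoters from RefSeq. Cavin3 had no promoter entry, and 1 other promoter is not reported here. Of 2 rows of Itgam the larger was used. Tables and figures used Python 3.11.15 (pandas 2.3.3, numpy 2.4.6, matplotlib 3.10.9).

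The members, the lists of other genes and the cell type markers were chosen with earlier results of these data known. Named were the targeted genes, all members and paralogs, up to 3 called genes of each other list with the largest change between the genotypes on HFD, and the 5 genes most like Cav1 and most like Cavin1. Src, Flot2 and Cfd were named after their values were seen, because a small count includes them. The alternatives were pseudocounts of 0.1 and 8, no filter or a mean of at least 50, 3 other scalings, a fit of 2 groups, robust estimation, the replicate number as a block, the WT HFD libraries as 1 sample, other limits for a call, and each library of the groups compared left out.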

Additional observations from a re-analysis of the deposited data

Results flagged for a closer look

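The effect of the Yap/Taz deletion differed between the diets for 6 of the 8 caveolae genes by the limma test of the interaction. This test sets the difference between Ad-Yap/Taz-KO and WT mice on HFD against that on SD. Over all tested genes 8.73% were called with a negative and 17.4% with any interaction. On the log2 scale the interaction was -1.48 for Cav1, -1.33 for Cav2, -1.17 for Cavin1, -0.75 for Cavin2, -2.02 for Cavin3 and -1.36 for Ehd2. For Cav1 the log2 fold change between the genotypes was -0.15 on SD and -1.63 on HFD, and for Cavin3 it was -0.32 and -2.34. In the same test 10 of the 12 adipocyte markers were called negative and 9 of the 12 endothelial, 9 of the 10 macrophage and 9 of the 10 fibroblast and progenitor markers positive, and their part in these values was not tested. These 6 calls became 0 without a filter on low values and with the WT HFD pair as 1 sample, 2 with quantile normalization, and 0 to 6 when 1 library was left out. With 2 libraries in each group no sample could be examined as standing apart from its group.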

How the results depend on the processing

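Of the 8 caveolae genes, 7 were called between the genotypes on HFD, and 6 or 7 under each of 13 alternatives and 7 without any 1 of the 4 HFD libraries. On SD the single call, Cavin2, became 0 with a pseudocount of 0.1, without a filter, with only the 2 groups fitted, with the replicate block, with the WT HFD pair as 1 sample, with a log2 fold change of at least 1 and without any 1 of the 4 SD libraries (0 in each). Between the diets in WT, 5 calls became 3 with a pseudocount of 0.1 and with the replicate block, 2 with upper-quartile scaling, 0 without a filter, scaled to the same total, with quantile normalization, with the WT HFD pair as 1 sample and with a log2 fold change of at least 1, and 0 to 1 without any 1 WT library. In Ad-Yap/Taz-KO animals, 0 calls became 1 (Cavin3) with a pseudocount of 8, scaled to the same total, with upper-quartile scaling and with quantile normalization, and 0 to 4 without any 1 of the 4 Ad-Yap/Taz-KO libraries. For the interaction, 6 calls became 0 without a filter and with the WT HFD pair as 1 sample, 2 with quantile normalization and 0 to 6 without any 1 of the 8 libraries. A library was left out only where its group was part of the comparison. Leaving out a library and averaging 2 libraries leave fewer samples to estimate the spread; the other causes were not tested.

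Calls over all genes ranged over the alternatives from 3445 to 6520 between the genotypes on HFD (6053 in the report), 381 to 969 on SD (886), 539 to 4037 between the diets in WT (3377), 0 to 961 between them in Ad-Yap/Taz-KO animals (202) and 517 to 4249 for the interaction (3274).

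Log2 fold changes with the opposite sign all came from genes that were not called. Scaled to the same total, Pacsin2 had 0.062 between the genotypes on HFD, -0.065 between the diets in WT and 0.17 in the interaction, and Ehd1 had 0.37 between the genotypes on HFD. For Ehd1 there, the value was 0.067 with upper-quartile scaling and 0.34 with quantile normalization. On SD between the genotypes, quantile normalization gave 0 for Cavin1 and 0.0010 for Ehd2. When 1 library of the groups compared was left out, Ehd1 ranged from -0.14 to 0.10 between the genotypes on HFD. Between the genotypes on SD, the ranges were -0.36 to 0.067 for Cav1, -0.22 to 0.054 for Cav2, -0.19 to 0.0092 for Cavin1, -0.23 to 0.095 for Ehd2 and -0.16 to 0.026 for Pacsin2. Between the diets, Pacsin3 ranged from -0.31 to 0.23 in WT animals. In Ad-Yap/Taz-KO animals Cavin2 ranged over -0.25 to 0.036 and Pacsin2 over -0.043 to 0.23.

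The values showed no sign that the replicate numbers pair the samples: over 18800 genes, deviations of same-numbered libraries correlated between -0.11 and 0.04. With 2 libraries per group this cannot exclude a pairing, and the labels do not state one. With the replicate block 7, 0, 3, 0 and 5 of the 8 genes were called in the 5 comparisons.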

Other observations

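Further lists describe other cell types that isolated adipocytes could hold. Skeletal muscle markers (8 genes, 6 tested) summed to 171 and 207 normalized counts in WT mice on SD, 1458 and 2278 in Ad-Yap/Taz-KO animals on SD, 414 and 475 in WT mice on HFD and 176 and 394 in Ad-Yap/Taz-KO animals on HFD, where Tnnt3 rose (log2 fold change 3.23) and Acta1 fell (-1.45) between the genotypes. The sum was carried by 1 gene: Acta1 had 1359 and 2207 normalized counts in the Ad-Yap/Taz-KO SD libraries, and each of the other markers had 0 to 44 in every library. The muscle genes Cav3 and Cavin4 stayed at or below 3 and 142 normalized counts in the Ad-Yap/Taz-KO SD libraries. Mesothelial markers (8 genes, 7 tested) summed to 231 to 808 normalized counts over the 8 libraries, and on HFD Wt1 rose (3.0) and Msln fell (-3.37) with the genotype. Lymphocyte markers (8 genes, 5 tested) summed to 192 to 306 in WT and 3286 to 3384 in Ad-Yap/Taz-KO animals on HFD, where Ptprc (3.88) and Cd79a (2.47) rose in limma.

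Among the other cell type markers, the largest called changes between the genotypes on HFD were those of Plvap (log2 fold change 1.28), Vwf (1.03) and Pecam1 (0.85) for endothelial cells, Acta2 (-1.91), Tagln (1.22) and Myh11 (1.18) for smooth muscle and pericytes, Pdgfra (2.96), Lum (2.57) and Col1a1 (2.17) for fibroblasts and progenitors, and Adgre1 (5.31), C1qb (4.48) and Itgam (4.39) for macrophages. PLVAP forms the diaphragm of endothelial caveolae.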
